A study of Mus musculus with 130 samples.

Results

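The mouse genome carries 39 Hox genes in 4 clusters, and all 39 were found among the 52550 genes of the deposited count table by their symbols, a letter for the cluster (A to D) and a number for the paralog group (1 to 13). RNA was measured by sequencing in FVB/NJ wild type embryos that carry FUCCI, a fluorescent reporter of the cell cycle. Cells of minced embryos were sorted by flow into 4 gates, which the labels call BR (G0), DR (G1), YE (G1-S) and GR (S-G2-M), and a further portion was left unsorted. There were 5 preparations, each with all 5 fractions: WT1 and WT2 at E10.5, WT3 at E11.5, and 5 and 8 at E13.5, which gave 25 libraries. How many embryos went into each preparation is not in the labels, so the p-values below measure the spread between preparations, which may be technical in part. In comparisons of gates all 5 preparations give this spread, pooled over the fractions. That fit has no term for the preparation and none for a gate difference that changes with the day, so both add to the spread. In comparisons of days only WT1 against WT2 and 5 against 8 give it, since WT3 is alone at its day. Within gates, the fits of days also take the fractions of 1 preparation as independent although their deviations correlated, so these p-values may be too small. The E13.5 preparations also have another series of titles and a higher share of mitochondrial counts (1.663% to 3.422%, against 0.372% to 0.701% in the others), and day, title series and this share cannot be told apart. Libraries held 14692256 to 58492064 counts, of which 0.022% to 0.095% (median 0.044%, or 11176 counts) fell on the 39 Hox genes. These are whole-body samples, and fewer cells of a type and less RNA per cell cannot be told apart in them.

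Hox proteins are homeodomain transcription factors that give cells their position along the head to tail axis. Genes at the 3′ end of each cluster (low paralog numbers) start early and reach far forward into the hindbrain, whereas genes at the 5′ end (high numbers) start later and are used in the trunk's hind end, the limbs, the genital tubercle and the urogenital tract. Most work as partners of the TALE homeodomain proteins of the Pbx and Meis families, and in the spinal cord they set the identity of motor neurons.

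On mm10 with GENCODE M21, cluster A spans 105.3 kb on the minus strand of chromosome 6 (52155590 to 52260880) with 11 genes, and cluster B spans 173.9 kb on the plus strand of chromosome 11 (96194316 to 96368256) with 10. Cluster C spans 115.8 kb on the plus strand of chromosome 15 (102921103 to 103036852) and cluster D 96.8 kb on the plus strand of chromosome 2 (74668310 to 74765142), with 9 genes each. Whether reads were counted by strand is not given in the sources used here, so reads of a Hox gene and of an antisense partner may be mixed. For 7 genes over 10% of the exon bases lie under exons of a gene on the other strand: Hoxa3 (25.4%), Hoxa4 (16%), Hoxa7 (20.4%), Hoxa11 (35%, under Hoxa11os), Hoxb2 (27.3%) and Hoxb3 (52.9%, both under Hoxb3os) and Hoxd4 (11.8%). These 7 are set apart in the comparisons of days. With the whole span of such other-strand genes, introns included, 13 genes pass the same threshold, among them Hoxa5 (100%). Hoxd3 and Hoxd4 share exons on 1 strand (62.3% and 52.3% of their exon bases), and their separate values are uncertain.

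Levels are given as CPM, counts relative to a library total that was scaled by TMM factors, and levels of different genes are compared only per kilobase of exon. Averaged over the 25 libraries, the gene with the most RNA per kilobase was Hoxb9, a thoracic patterning gene, at 21.98 CPM per kb (3.125 to 66.56 over libraries). It was followed by Hoxa5 (12.37 CPM per kb), which acts in the neck, lung and upper trunk, Hoxb6 (10.46), Hoxa6 (10.36) and Hoxb4 (10.16). The ranges of these 5 genes over libraries overlapped, and the order is that of the pooled mean only. Hoxb9 averaged 51.6 CPM per kb in G0, whereas in S-G2-M of preparation 5 it lay at 3.125 and Hoxd13 at 21.12 CPM per kb. In cluster C the highest was Hoxc4 at 7.68 CPM per kb, and in cluster D it was Hoxd4 at 6.482. The lowest were Hoxb13 (0.4225 CPM per kb), Hoxc13 (0.7116) and Hoxb1 (0.8709), which acts in the fourth segment of the hindbrain.

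**Figure D1:**
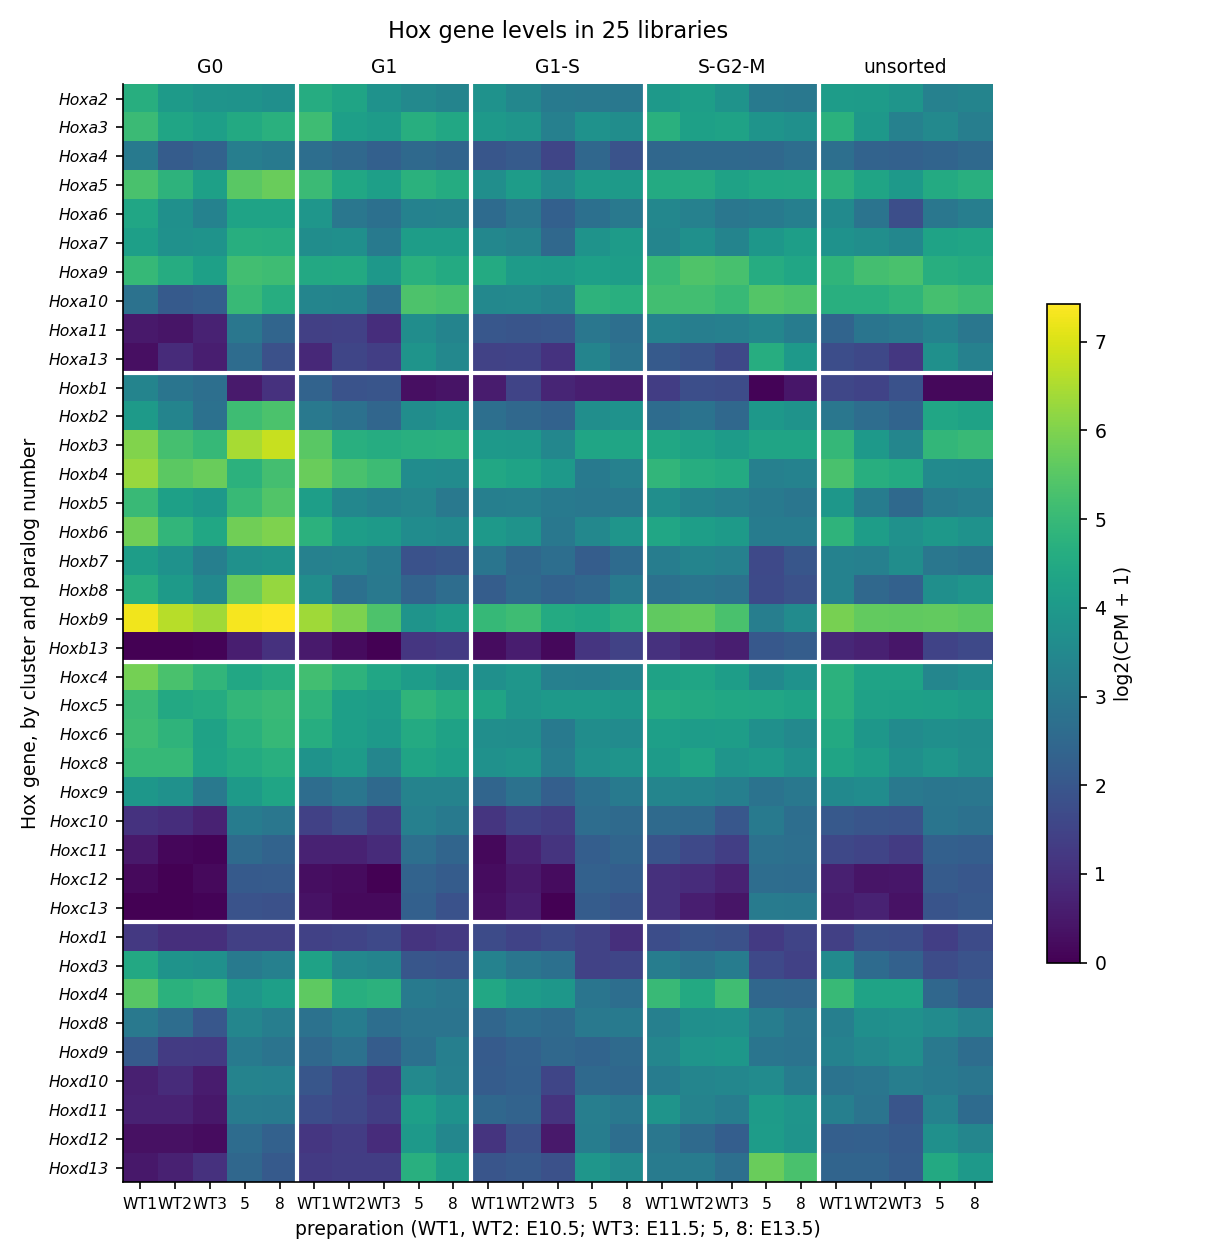
Level of the Hox genes reported here (rows, by cluster and paralog number) in each of the 25 libraries (columns, by gate and then preparation), as log2(CPM + 1) in colour. Paralogs 10 to 13 are darkest (lowest) in the G0 columns of WT1, WT2 and WT3, where Hoxd13 lies at 0.401 to 1.08 CPM, and lighter in S-G2-M, while Hoxb9 is bright (high) in all 5 G0 columns at 81.3 to 171 CPM.

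The first question of the design is how expression differs between cell cycle phases. From G0 to S-G2-M, all 12 genes of paralog groups 10 to 13 rose, with a median log2 change of 2.2 (range 1.16 to 3.41). Of the 27 genes of groups 1 to 9, 20 fell and 2 rose, with a median of -0.79. In all, 14 of the 39 genes were higher in S-G2-M and 20 were lower at an adjusted p under 0.05, beside 27.5% higher and 26.6% lower among all genes tested. The 2 genes of low number that rose were Hoxd1 (log2 change 0.7) and Hoxd9 (1.41), both of cluster D (-0.08 and -0.19, not called, within the E13.5 preparations alone), and those that passed in neither direction include Hoxa3, Hoxa4, Hoxa9 and Hoxd8. Without WT2, 9 genes were called higher, none of them of groups 1 to 9. The division between groups 9 and 10 was chosen after the values were seen.

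Hoxd13, which patterns digits and the genital tubercle, had the highest rise. In G0 it lay at 0.401, 0.601 and 1.08 CPM in WT1, WT2 and WT3 and at 4.54 and 3.27 CPM in 5 and 8. In S-G2-M it lay at 7.56, 7.43 and 5.51 CPM in WT1 to WT3 and at 52.4 and 38 CPM in 5 and 8. The E13.5 libraries were the high ones in both gates, and every S-G2-M library was above every G0 library. The log2 change was 3.41 ± 0.3 (SE, n = 5 preparations; edgeR quasi-likelihood adjusted p = 1.04e-09), a 10.66-fold difference. Its neighbours Hoxd12 (log2 change 2.92 ± 0.42, edgeR adjusted p = 2.49e-06) and Hoxd11 (2.6 ± 0.49, edgeR adjusted p = 9.84e-05), the latter needed for the forearm, followed. Hoxa11, a partner of Hoxd11 in the limb and a gene of the uterus, rose by 2.49 ± 0.5 (edgeR adjusted p = 0.000193), and 35% of its exon bases lie under an antisense gene. For Hoxa13, active in the hand and foot plate, the log2 change was 2.28 ± 0.3 (edgeR adjusted p = 6.08e-07).

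The rise was not of 1 size in all preparations. Hoxa10, which patterns the lumbar region and the upper hind limb, lay in G0 at 5.99, 3.3 and 3.69 CPM in WT1 to WT3 and at 30.9 and 23.8 CPM in 5 and 8. In S-G2-M it lay at 35.5, 35.4 and 31 CPM in WT1 to WT3 and at 42.2 and 39.8 CPM in 5 and 8. The groups only just did not overlap, with the highest G0 library (5) at 30.89 CPM and the lowest S-G2-M library (WT3) at 30.96 CPM. The distance between the gates was shorter within 5 and 8 than within WT1 to WT3. Within WT1 to WT3 the 12 genes had a median log2 change of 3.61 and all 12 were called higher. Within 5 and 8 the median was 0.77 and 9 were called, without Hoxc11 (log2 change 0.27), Hoxd10 (0.02) and Hoxc10 (-0.21). With preparation WT2 left out of the 5, 9 of the 12 were called, again without these 3.

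Cluster B held the largest falls. Hoxb8 and Hoxb9, neighbours in the cluster that act in the thoracic spinal cord and skeleton, were the lowest. Hoxb9 lay in G0 at 154, 97.5 and 81.3 CPM in WT1 to WT3 and at 160 and 171 CPM in 5 and 8. In S-G2-M it lay at 47.5, 50.2 and 38.5 CPM in WT1 to WT3 and at 8.04 and 11 CPM in 5 and 8. No S-G2-M library reached the lowest G0 library, and the 2 E13.5 libraries were lowest in S-G2-M although among the highest in G0. The log2 change of Hoxb9 was -2.35 ± 0.4 (edgeR adjusted p = 3.07e-05), being -1.26 within WT1 to WT3 and -4.2 within 5 and 8. Hoxb8 went from 24.5, 15.4, 10.4, 51.8 and 75 CPM in G0 to 5.82, 6.35, 5.99, 2.2 and 2.59 CPM in S-G2-M (WT1, WT2, WT3, 5, 8). Its groups did not overlap either, and its log2 change was -2.68 ± 0.47 (edgeR adjusted p = 3.97e-05). Hoxb1 (-1.76 ± 0.44, edgeR adjusted p = 0.00155), Hoxb6 (-1.75 ± 0.3, edgeR adjusted p = 2.93e-05) and Hoxb3 (-1.72 ± 0.25, edgeR adjusted p = 4.09e-06) came next.

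By cluster, 9 of the 10 genes of cluster B fell (median log2 change -1.69) and Hoxb13 alone rose. In cluster C, 5 fell and the 4 of groups 10 to 13 rose. Cluster A had 4 falls and 3 rises, and cluster D had 2 falls (Hoxd3 and Hoxd4) and 6 rises. By paralog number, 5 of 8 genes of groups 1 to 3 fell, 13 of 15 of groups 4 to 8 fell with none higher, and group 9 was split between Hoxb9 and Hoxc9 (lower), Hoxd9 (higher) and Hoxa9 (not called). By preparation, groups 10 to 13 were higher in S-G2-M in 12 of 12 genes in WT1, WT2 and WT3, in 11 in 5 and in 10 in 8. Groups 1 to 9 were lower in 23, 20, 17, 26 and 25 of 27 genes in WT1, WT2, WT3, 5 and 8. In the same order 4, 7, 10, 1 and 2 of them were higher. These counts use the same values from which the division between groups 9 and 10 was chosen.

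Group 9 stood at the boundary between the 2 directions. Hoxd9, which acts with Hoxd10 in the lumbar spinal cord and the hind limb, lay in G0 at 3.31, 1.46 and 1.39 CPM in WT1 to WT3 and at 7.4 and 6.24 CPM in 5 and 8. In S-G2-M it lay at 9.63, 13.7 and 14.2 CPM in WT1 to WT3 and at 6.43 and 6.04 CPM in 5 and 8. It was far higher in S-G2-M in the 3 preparations of E10.5 and E11.5 and slightly lower in those of E13.5, so its pooled change of 1.41 ± 0.38 (edgeR adjusted p = 0.00311) joins unlike values (-0.19, edgeR adjusted p = 0.468, within 5 and 8). Hoxa9, a gene of the lower trunk that is also used in blood progenitors, lay at 30.4, 23.4, 17.8, 35.1 and 33.5 CPM in G0 and at 31.7, 40.5, 37.3, 23.1 and 20 CPM in S-G2-M (WT1, WT2, WT3, 5, 8). The 2 gates overlapped and no pooled difference was called (0.11 ± 0.2, edgeR adjusted p = 0.674). Within WT1 to WT3 Hoxa9 was called higher in S-G2-M (0.64, edgeR adjusted p = 0.0218) and within 5 and 8 lower (-0.73, edgeR adjusted p = 2.89e-05).

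Outside cluster B the falls in groups 1 to 8 ran from -1.44 (Hoxd3) to -0.4 (Hoxc5) on the log2 scale. Hoxc6 and Hoxc8, which in the spinal cord mark the motor neurons of the forelimb level, had log2 changes of -0.88 ± 0.17 (edgeR adjusted p = 0.000103) and -0.72 ± 0.14 (edgeR adjusted p = 0.000111). Hoxc6 lay at 33.6, 27.3, 18.6, 25.5 and 30.4 CPM in G0 and at 17.5, 16.1, 16.7, 12.3 and 10.2 CPM in S-G2-M (WT1, WT2, WT3, 5, 8), and the gates did not overlap, although G0 of WT3 came close. Hoxa5 (-0.72) and Hoxa6 (-0.91) fell as well. Hoxa2, the gene of the second pharyngeal arch and the hindbrain, had the second smallest fall that passed (-0.45 ± 0.14, edgeR adjusted p = 0.0102).

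**Figure D2:**
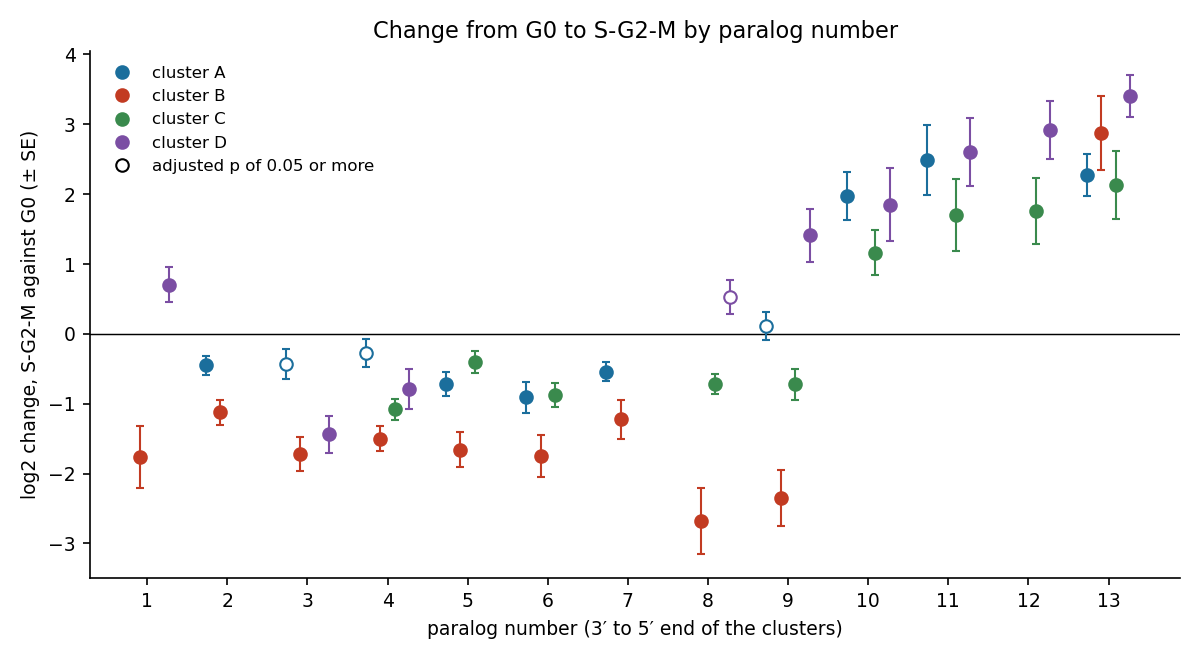
Fitted log2 change from G0 to S-G2-M (y axis, with SE bars, n = 5 preparations) against paralog number (x axis), 1 point for each gene reported here, coloured by cluster, with open points at an adjusted p of 0.05 or more. All 12 points of groups 10 to 13 lie above 0 (1.16 to 3.41), and the lowest points are Hoxb8 (-2.68) and Hoxb9 (-2.35).

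The 4 promoter windows below belong to the 2 genes with the highest rise and to the lowest 2 of cluster B that have an entry, shown so that the 2 kinds of gene can be compared at their start sites. They are the 250 bases before the RefSeq start on GRCm38.p6, 5′ to 3′ on the plus strand, with capitals at matches on either strand to 5 motifs: CCAAT (the NF-Y box), TATAAA (the TATA box), CAATAAA (a core bound by Cdx and posterior Hox proteins), TAATTA (a homeodomain core) and GCGGGAA (an E2F core). CCAAT and CAATAAA can share letters. The windows are Hoxd13 at chr2:74667975-74668224, Hoxd12 at chr2:74674763-74675012, Hoxb8 at chr11:96281655-96281904 and Hoxb1 at chr11:96365508-96365757.
Hoxd13: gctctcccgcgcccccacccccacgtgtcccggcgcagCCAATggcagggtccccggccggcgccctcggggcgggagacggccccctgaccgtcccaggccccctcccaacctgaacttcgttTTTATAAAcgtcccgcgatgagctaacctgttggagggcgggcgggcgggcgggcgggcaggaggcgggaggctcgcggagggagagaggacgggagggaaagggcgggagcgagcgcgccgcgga
Hoxd12: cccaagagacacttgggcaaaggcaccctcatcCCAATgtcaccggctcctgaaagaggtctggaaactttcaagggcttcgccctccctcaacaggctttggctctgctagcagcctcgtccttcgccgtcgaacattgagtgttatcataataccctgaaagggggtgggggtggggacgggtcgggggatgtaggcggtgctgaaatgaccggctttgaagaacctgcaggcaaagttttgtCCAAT
Hoxb8: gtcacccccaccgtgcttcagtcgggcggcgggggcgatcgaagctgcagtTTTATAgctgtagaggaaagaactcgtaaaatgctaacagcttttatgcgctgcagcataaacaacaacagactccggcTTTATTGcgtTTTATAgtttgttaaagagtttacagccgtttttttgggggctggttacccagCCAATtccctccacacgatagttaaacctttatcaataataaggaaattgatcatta
Hoxb1: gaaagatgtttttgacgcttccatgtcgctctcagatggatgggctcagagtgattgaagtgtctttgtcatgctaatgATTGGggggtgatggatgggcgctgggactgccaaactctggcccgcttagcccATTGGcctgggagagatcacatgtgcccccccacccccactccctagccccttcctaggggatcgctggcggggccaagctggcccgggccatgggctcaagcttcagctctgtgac

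Hoxd13 has a CCAAT and a TATA match in a window of 74.4% G and C with 31 CpG pairs, and Hoxd12 has 2 CCAAT matches at 55.6% and 10 CpG. Hoxb8 has 2 TATA matches, 1 CCAAT and 1 CAATAAA at 44.4% and 12 CpG, and Hoxb1 has 2 CCAAT matches at 59.2% and 7 CpG. RefSeq windows were matched for 22 of the 39 genes (24 windows, since some genes have more than 1 start). CCAAT was in 14 of the 24 (58.3%), beside 33.8% of the 32851 windows of all genes, and in 5 of 9 windows of groups 10 to 13. TATAAA was in 4 windows (Hoxa10, Hoxb8, Hoxd4 and Hoxd13), beside 12.4% of all windows, CAATAAA in 1 (4.2% of all) and TAATTA in both windows of Hoxd11 (4.8% of all). GCGGGAA was in 0 of the 24, beside 3.8% of all windows. The Hox windows had a median of 12.5 CpG pairs (2 to 35), beside 6 over all windows. Both kinds of gene thus held CCAAT and TATA matches, and a match is no more than a run of letters.

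The path from G0 to S-G2-M can be followed through the gates, which share their libraries between neighbouring comparisons. From G0 to G1, 4 genes were higher and 17 lower, beside 18.2% and 18.1% of all genes. The 4 were Hoxd13 (log2 change 1.77 ± 0.29, edgeR adjusted p = 4.17e-05), Hoxd12 (1.6 ± 0.41, edgeR adjusted p = 0.00316), Hoxa13 (1.47 ± 0.3, edgeR adjusted p = 0.000387) and Hoxd11 (1.19 ± 0.47, edgeR adjusted p = 0.0498). The call of Hoxd11 was lost in 7 of 12 alternatives, among them the preparation as a block (edgeR adjusted p = 0.0613), RLE factors and leaving out WT1, WT2, WT3 or 5, with adjusted p up to 0.128. All 17 that were lower belonged to groups 1 to 9, 9 of them to cluster B, led by Hoxb8 (-2.23), Hoxb9 (-1.97), Hoxb6 (-1.56), Hoxb5 (-1.44) and Hoxb7 (-1.25). Hoxb9 lay in G1 at 81, 61.7 and 39.8 CPM in WT1 to WT3 and at 13.5 and 15.9 CPM in 5 and 8, so the E13.5 libraries, among the highest in G0, were the lowest in G1. No G1 library of Hoxb9 reached the lowest G0 library, but G1 of WT1 (80.98 CPM) came close to G0 of WT3 (81.26 CPM). Within WT1 to WT3 alone 10 genes were called higher and 9 lower in G1. Beside these changes all 15 neuron markers were lower in G1 than in G0 (median log2 change -2.95), 7 of 10 motor neuron markers were lower and 1 higher (-1.51), and 11 of 12 mesenchyme markers were higher and 1 lower (1.53). Their part in the Hox differences was not tested.

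From G1 to G1-S no gene was higher by edgeR's test, and 9 were lower, beside 11.7% and 7.18% of all genes. At an unadjusted p under 0.05, and by DESeq2, 0 were higher too. They were Hoxc4 (log2 change -1.01 ± 0.15, edgeR adjusted p = 3.16e-05), Hoxb3 (-0.89), Hoxb4 (-0.89), Hoxa3 (-0.85) and Hoxc6 (-0.84), together with Hoxa2, Hoxa5, Hoxc5 and Hoxd3. Hoxc4, used in the neck and the cervical spinal cord, went from 35, 26.7, 20.1, 16.2 and 13 CPM in G1 to 12.2, 13.9, 8.33, 8.22 and 9.16 CPM in G1-S (WT1, WT2, WT3, 5, 8). It fell in every preparation, the most in WT1 and the least in 8, and the 2 gates overlapped. The median of groups 10 to 13 was -0.08. In this step 10 of 10 hepatocyte (median log2 change 3.88), 9 of 10 macrophage (1.86) and 8 of 10 heart muscle markers (2.37) rose. Lower in G1-S were 7 of 15 neuron (-0.81), 4 of 10 forebrain and midbrain (-0.62) and 3 of 10 motor neuron markers (-0.85). No marker of these last lists was higher by edgeR's test. The part of all these markers in the falls was not tested. Within 5 and 8 alone 2 Hox genes were called higher and 19 lower. Hoxb9 was called lower within WT1 to WT3 (-1.02, edgeR adjusted p = 0.0022) and higher within 5 and 8 (0.64, edgeR adjusted p = 0.00198).

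From G1-S to S-G2-M, 14 genes were higher and none was lower by edgeR's test, beside 7.28% and 10.1% of all genes. At an unadjusted p under 0.05, 26 were higher and 0 lower, and DESeq2 called 21 higher and 0 lower. Groups 10 to 13 gave 8 of the 14 (median log2 change 1.32 over the 12), and the other 6 were Hoxa4, Hoxa5, Hoxa9, Hoxc4, Hoxd8 and Hoxd9. Cluster D gave 6 of its 9 genes. Hoxd12 (1.67 ± 0.39, edgeR adjusted p = 0.00487), Hoxd11 (1.55 ± 0.46, edgeR adjusted p = 0.0229), Hoxd13 (1.47 ± 0.27, edgeR adjusted p = 0.00066), Hoxa10 (1.44 ± 0.33, edgeR adjusted p = 0.00444) and Hoxd10 (1.43 ± 0.5, edgeR adjusted p = 0.0489) led. Each of the 12 genes of groups 10 to 13 was higher in S-G2-M in each of the 5 preparations. With the preparation as a block 15 were called, and Hoxb13 (edgeR adjusted p = 0.0524) and Hoxd10 (edgeR adjusted p = 0.0619) were not. Hoxd10 lost its call in 8 of 12 alternatives. Within 5 and 8 alone 11 genes were higher and 4 of cluster B (Hoxb6, Hoxb7, Hoxb8 and Hoxb9) were lower. Hoxb9 was called higher within WT1 to WT3 (0.67, edgeR adjusted p = 0.0285) and lower within 5 and 8 (-1.29, edgeR adjusted p = 1.73e-05). Without WT1, WT2, WT3 or 5 the count of 14 became 8, 7, 9 or 9. In this step all 10 hepatocyte, 10 heart muscle and 10 endothelial markers were lower (median log2 changes of -3.37, -3.47 and -1.7). So were 9 of 10 macrophage (-3.46), 7 of 12 erythroid (-1.87) and 6 of 15 neuron markers (-0.87). Forebrain and midbrain (7 of 10, median 1.03), neural progenitor (7 of 12, 0.79) and mesenchyme markers (6 of 12, 0.84) were higher. The part of these markers in the Hox rises was not tested.

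**Figure D3:**
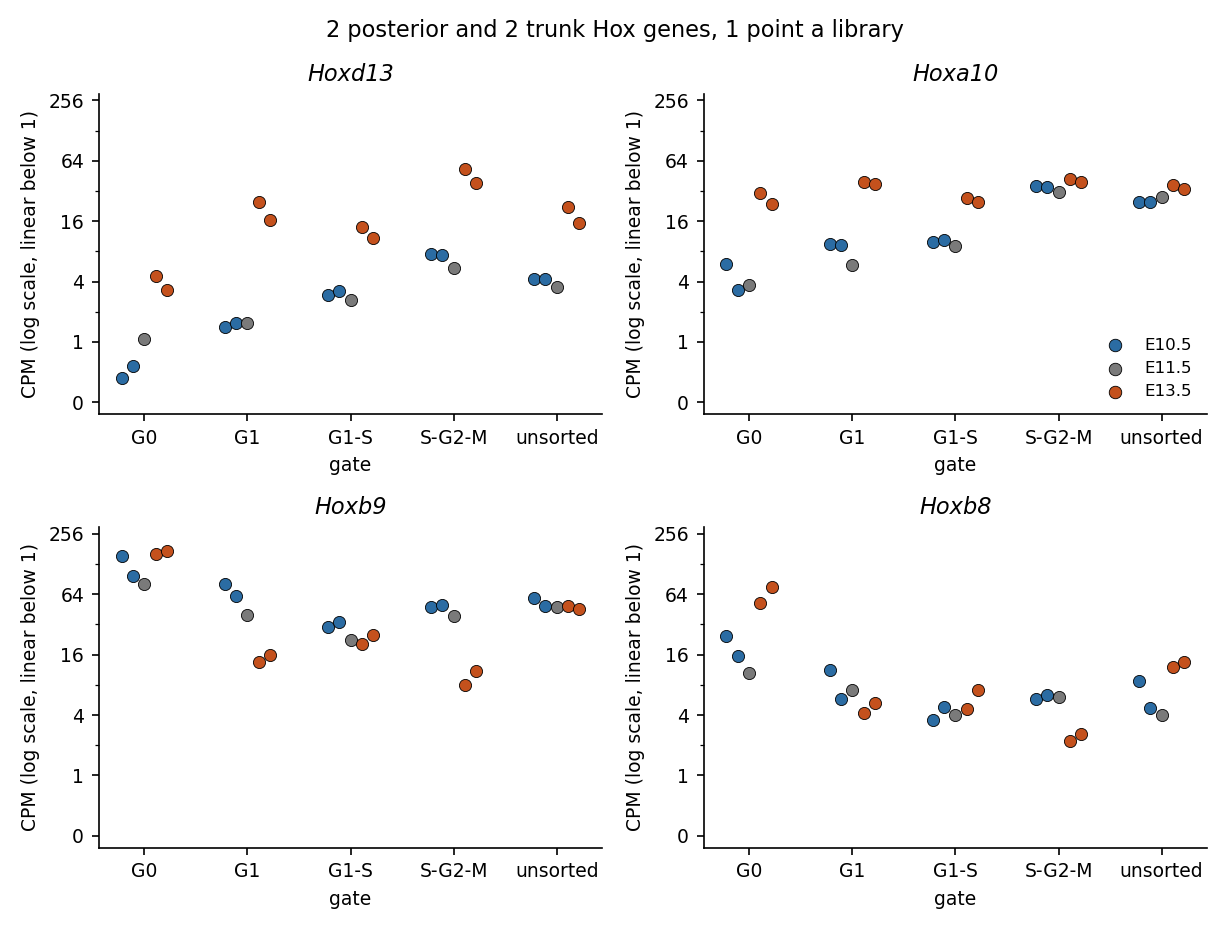
CPM of Hoxd13, Hoxa10, Hoxb9 and Hoxb8 in every library (y axis, log scale, linear below 1) by gate (x axis), with points coloured by day. Hoxd13 climbs from G0 (0.401 to 4.54 CPM) to S-G2-M (5.51 to 52.4 CPM), and the E13.5 points of Hoxb9 move from 160 and 171 CPM in G0 to 8.04 and 11 CPM in S-G2-M.

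The make-up of the Hox RNA shifted with the gates. Groups 10 to 13 held 1.094%, 1.358% and 1.632% of the summed Hox CPM per kb in G0 of WT1, WT2 and WT3, and 10.64% and 8.001% in 5 and 8. In S-G2-M they held 17.95%, 16.96% and 16.33% in WT1 to WT3 and 45.91% and 40.25% in 5 and 8. The E13.5 libraries had the higher share in each gate, and within every preparation S-G2-M had the highest share and G0 the lowest. Cluster B held 46.62% to 53.96% of the Hox total in G0 over the 5 preparations. In S-G2-M it held 30.11%, 29.2% and 28.11% in WT1 to WT3 and 14.46% and 16.7% in 5 and 8. G0 was the gate with the highest cluster B share in each preparation, and the S-G2-M range lay wholly below it.

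**Figure D4:**
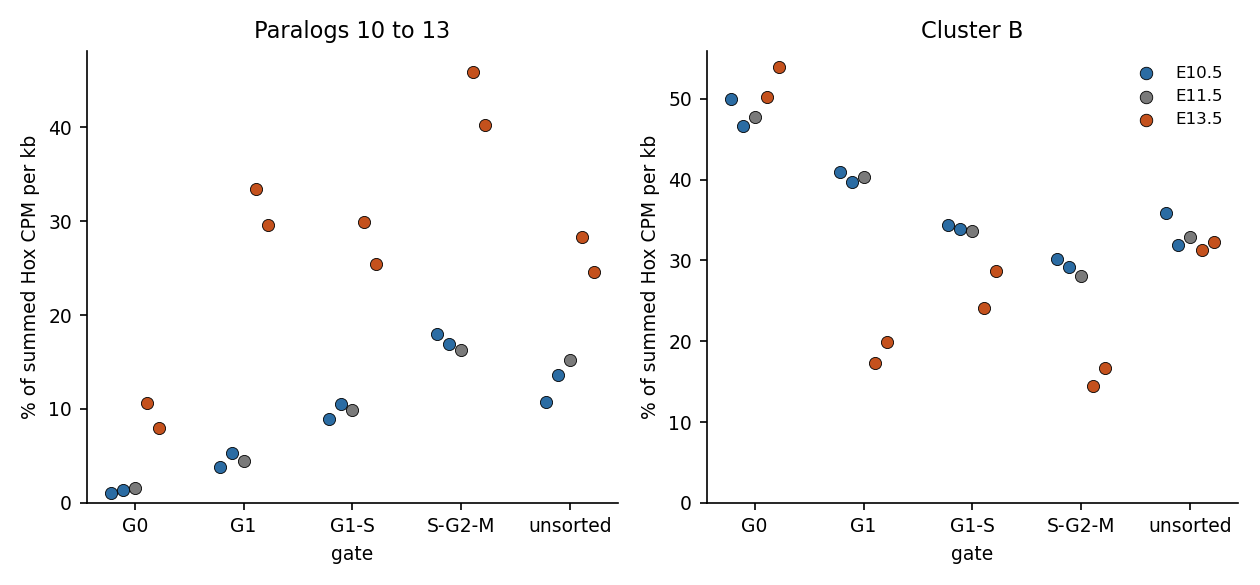
Share of the summed Hox CPM per kb (y axis, percent) held by paralog groups 10 to 13 and by cluster B in each gate (x axis), 1 point a library, coloured by day. The share of groups 10 to 13 runs from 1.094% (G0 of WT1) to 45.91% (S-G2-M of 5), and that of cluster B from 53.96% (G0 of 8) to 14.46% (S-G2-M of 5).

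The gates also differed in cell type markers. All 15 neuron markers were lower in S-G2-M than in G0 (median log2 change -4.46), and their summed level was 6106 to 10300 CPM in G0 and 249 to 608 CPM in S-G2-M. Of 12 markers of limb and body wall mesenchyme, 11 were higher and 1 was lower (median 2.08), with summed levels of 160 to 843 CPM in G0 and 993 to 1167 CPM in S-G2-M. None of these markers was at 0 in all libraries of a gate and day. Of 10 spinal motor neuron markers 9 were lower and 1 was higher. The neuron and motor neuron markers moved in the direction of groups 1 to 9, as did 6 of 10 heart muscle markers (median -1.97). The mesenchyme markers moved in that of groups 10 to 13, but not alone. Also higher were 9 of 12 paraxial mesoderm and muscle markers (1.95), 9 of 12 neural progenitor markers (1.38) and 7 of 13 cartilage markers (0.68). Each of these 3 lists had 1 marker lower. The part of the marker lists in the Hox differences was not tested.

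The second question is how expression changed over the days. In G0, all 12 genes of groups 10 to 13 were higher at E13.5 than at E10.5, with a median log2 change of 3.7. Of the 32 genes not set apart, 14 were higher and 6 lower, beside 20.4% and 22.5% of all genes. Hoxc13, which acts in hair and nails, had 0 counts in both E10.5 libraries and lay at 2.76 and 2.61 CPM in 5 and 8, at least 47.6-fold higher against a floor of 3 counts over the group. Hoxb13, a gene of the tail end, had 0 counts at E10.5 and lay at 0.543 and 1.07 CPM, at least 14.2-fold higher. Hoxc12 had 4 and 0 counts at E10.5, and its fitted change ran from 4.55 to 9.51 over the alternatives. Hoxc12 (log2 change 5.4 ± 0.56, edgeR adjusted p = 8.23e-07), Hoxd12 (4.09 ± 0.43, edgeR adjusted p = 9.56e-07), Hoxc11 (4.01 ± 0.49, edgeR adjusted p = 5.9e-06) and Hoxd10 (3.61 ± 0.29, edgeR adjusted p = 4.33e-08) followed. Hoxd10, which helps set lumbar motor neurons, went from 0.569 and 0.901 CPM in WT1 and WT2 to 9.03 and 8.9 CPM in 5 and 8, while WT3 at E11.5 lay at 0.495 CPM. The E11.5 library thus lay with the E10.5 ones.

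Outside groups 10 to 13 and the genes set apart, 3 genes rose in G0: Hoxb8 (log2 change 1.66), Hoxd9 (1.48) and Hoxa5 (0.57). The call of Hoxa5 was lost with RLE factors and with DESeq2. Among the 6 that were lower were Hoxb1 (log2 change -3.38 ± 0.52, edgeR adjusted p = 5.95e-05), Hoxd3 (-1.16 ± 0.34, edgeR adjusted p = 0.0117), Hoxc4 (-1.11 ± 0.21, edgeR adjusted p = 0.000395), Hoxb4 (-0.99 ± 0.25, edgeR adjusted p = 0.00368) and Hoxa2. Without preparation 5, 3 genes were called lower. Hoxd3 lost its call without 5 and without 8 (adjusted p up to 0.193), and Hoxb4 without 5 and with the G0 libraries alone (up to 0.146). Hoxb1 went from 9.3 and 6.35 CPM at E10.5 to 0.444 and 1.07 CPM at E13.5. Both days stood apart, with E11.5 (5.58 CPM) nearer to E10.5. In the same gate 10 of 12 mesenchyme markers were higher at E13.5 (median log2 change 2.53) and none was lower by edgeR's test, 11 of 13 cartilage markers were higher and 1 was lower, and 9 of 10 motor neuron markers were lower (median -2.97). Their part in the Hox differences was not tested.

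In G1, 12 of the 32 genes were higher and 9 lower at E13.5, beside 18.7% and 28.5% of all genes. All 12 genes of groups 10 to 13 rose there too (median log2 change 2.86, Hoxa11 among them and set apart), with Hoxc12 (4.42), Hoxc13 (4.02), Hoxd13 (3.8), Hoxd12 (3.18) and Hoxa13 (3.05) at the top. Of the genes not set apart, Hoxc9 was the other rise, and it was not called with the G1 libraries alone (edgeR adjusted p = 0.0734). Hoxa7 and Hoxb2, both set apart, were higher too. Hoxb1 (-3.64), Hoxd3 (-2.32), Hoxb9 (-2.28 ± 0.21, edgeR adjusted p = 2.79e-07), Hoxb4 (-2.02) and Hoxb7 (-1.64) were the lowest. In this gate 12 of 13 cartilage markers (median log2 change 3.59) and 7 of 12 mesenchyme markers (1.22) were higher at E13.5, and 7 of 10 motor neuron markers were lower and 1 higher (-2.23).

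In G1-S, 10 were higher and 4 lower, beside 19.8% and 19.8% of all genes. These 10 rises were again of groups 10 to 13 (median 1.92), led by Hoxc12 (3.54), Hoxc11 (3.25), Hoxc13 (3.08), Hoxa13 (2.15) and Hoxd13 (2.06). Hoxd10 was not among them. Of the genes set apart, Hoxa7, Hoxa11 and Hoxb2 were higher too. The falls include Hoxd3 (-1.99), Hoxb4 (-1.29) and Hoxa2 (-0.66). Without 5, 1 was called lower, without 8, 2, without WT1, 7, and without WT2, 8. Here all 10 hepatocyte markers (median log2 change 5.54), 12 of 13 cartilage markers (2.23) and 6 of 12 mesenchyme markers (0.5) were higher at E13.5. In G1 and in G1-S the part of these markers in the Hox differences was not tested.

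In S-G2-M, 7 of the 32 genes were higher and 13 lower at E13.5, beside 18.9% and 24.1% of all genes. The 7 were Hoxc13 (log2 change 3.22 ± 0.38, edgeR adjusted p = 7.67e-06), Hoxa13 (2.64 ± 0.43, edgeR adjusted p = 0.000141), Hoxd13 (2.58 ± 0.25, edgeR adjusted p = 6.05e-07), Hoxc12 (2.4 ± 0.38, edgeR adjusted p = 0.000102), Hoxd12 (1.34 ± 0.3, edgeR adjusted p = 0.00185), Hoxb13 and Hoxc11. All 4 genes of group 13 rose in this gate, and no gene of group 10 was called. All 4 genes of group 9 fell. Hoxb9 went from 47.5 and 50.2 CPM at E10.5 to 8.04 and 11 CPM at E13.5 (log2 change -2.38 ± 0.22, edgeR adjusted p = 3.19e-07). The 2 days stood far apart, and WT3 at 38.5 CPM lay nearer to E10.5. Hoxb1 (-3.38), Hoxd3 (-1.89), Hoxb7 (-1.76) and Hoxb4 (-1.61) were the other lowest. Of the cartilage markers 12 of 13 were higher at E13.5 in this gate (median log2 change 2.09). Of 12 mesenchyme markers 5 were higher and 1 lower (-0.01), and of 15 neuron markers 10 were higher and 1 lower (0.97). What part these markers had in the Hox differences was not tested. Without preparation 5 or 8, 5 genes were called lower, and without 5, 4 were called higher.

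In unsorted cells, 10 of the 32 genes were higher and 6 lower at E13.5, beside 23.2% and 23.7% of all genes. Hoxc12 (log2 change 2.89 ± 0.41, edgeR adjusted p = 0.00175), Hoxc13 (2.47), Hoxa13 (2.28), Hoxd13 (2.18) and Hoxd12 (1.57) had the highest changes. Of the genes not set apart, Hoxb8 was the only rise outside groups 10 to 13. Hoxa7 and Hoxb2, both set apart, were higher too. Hoxd13 lay at 4.28 and 4.21 CPM at E10.5, 3.49 CPM at E11.5 and 22 and 15.2 CPM at E13.5. The E13.5 libraries stood above the others, which were close together. Hoxb1 (-3.92 ± 0.48, edgeR adjusted p = 0.00102), Hoxd3 (-1.61), Hoxb4 (-1.51), Hoxc4 (-1.07) and Hoxa2 (-0.8) were the lowest. Hoxb9 lay at 59.4 and 48.9 CPM at E10.5 and at 48.8 and 45.8 CPM at E13.5, and its log2 change in unsorted cells was -0.14 (edgeR adjusted p = 0.437). With 5 or 8 left out, 5 genes were called higher, and with WT1 or WT2 left out 11 or 16 were called lower. In unsorted cells 10 of 10 hepatocyte markers (median log2 change 3.61), 11 of 13 cartilage markers (2.14) and 7 of 12 mesenchyme markers (0.63) were higher at E13.5, and 7 of 10 motor neuron markers were lower and 1 higher (-1.34). Their part in the Hox differences was not tested.

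**Figure D5:**
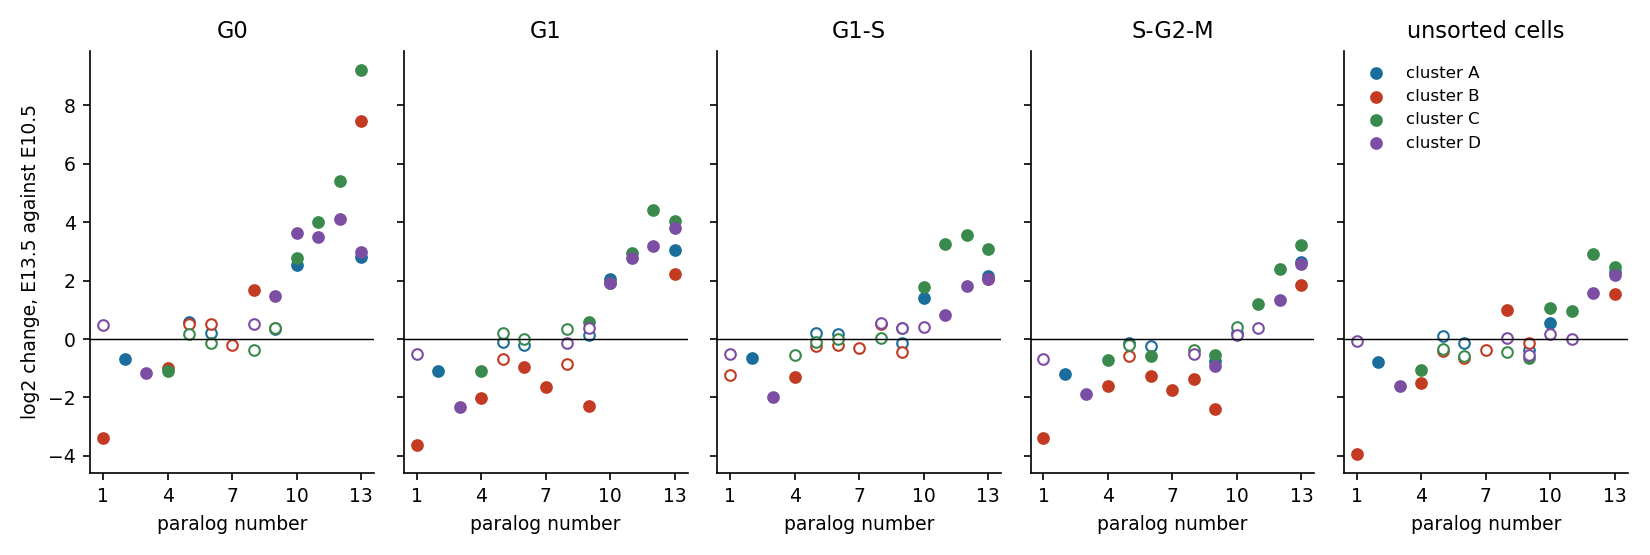
Fitted log2 change from E10.5 to E13.5 (y axis) against paralog number (x axis) for the genes reported here and not set apart, 1 panel for each gate and for unsorted cells, with open points at an adjusted p of 0.05 or more. Groups 10 to 13 lie high in G0 and G1 and lower in S-G2-M, where Hoxc13 (3.22), Hoxa13 (2.64) and Hoxd13 (2.58) are the highest points. The G0 points of Hoxc13 (9.2) and Hoxb13 (7.47) rest on 0 counts at E10.5 and are no bound.

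The difference between S-G2-M and G0 itself changed with the day. In a test of that change, 16 of the 32 genes not set apart (17 of 39 with Hoxa11) were lower at E13.5 than at E10.5 and none was higher, beside 4.42% and 4.24% of all genes tested. At an unadjusted p under 0.05, 1 of the 39 was higher, and DESeq2 called 0. The 17 were 10 of the 12 genes of groups 10 to 13, all 4 of group 9, and Hoxb6, Hoxb7 and Hoxb8. For groups 10 to 12 the step from G0 to S-G2-M was thus smaller at E13.5. Hoxd10 lay at 0.569 and 0.901 CPM in G0 and 7.73 and 9.38 CPM in S-G2-M at E10.5. At E13.5 it lay at 9.03 and 8.9 CPM in G0 and 11 and 7.77 CPM in S-G2-M. The gates were apart at E10.5 and overlapped at E13.5 (change -3.48, edgeR adjusted p = 1.17e-05). For Hoxb8 the fall from G0 to S-G2-M was larger at E13.5 (change -3.02, edgeR adjusted p = 0.00129). The 2 genes of groups 10 to 13 that were not called were Hoxa13 (-0.17, edgeR adjusted p = 0.952) and Hoxd13 (-0.38, edgeR adjusted p = 0.679). Without 5 or 8 in turn, which leaves 1 preparation at E13.5, 4 genes were called lower, and without WT2 2 were called higher. The mesenchyme markers changed in the same direction (8 of 12 lower, none higher by edgeR's test, median -2.03). Of 12 paraxial mesoderm and muscle markers 6 were lower too and 3 higher (-1.46). Neuron markers (9 of 15 higher, 1 lower, median 1.19), motor neuron markers (9 of 10 higher, 2.84) and heart muscle markers (6 of 10 higher, 3.96) changed the other way. The part of these markers was not tested.

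Of the 9 TALE partners of Hox proteins, 6 fell and 1 rose from G0 to S-G2-M, beside 26.6% and 27.5% of all genes. Meis3 fell the most (log2 change -2.36, edgeR adjusted p = 2.33e-11), and Pbx2 rose (0.71, edgeR adjusted p = 1.22e-05). In G0, Pknox2 was higher at E13.5 (1.12, edgeR adjusted p = 3.5e-06), and Meis3 (-1.2), Meis1 (-0.75), Pbx2 (-0.49) and Meis2 (-0.36) were lower. Meis1 and Meis2, partners of many Hox proteins in limb and nerve cells, both fell from G1 to G1-S (-0.44 and -0.59) and rose from G1-S to S-G2-M (0.27 and 0.4).

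Of the noncoding RNAs of the clusters, 12 had enough counts for the test. From G0 to S-G2-M, Hottip (log2 change 2.62), which lies at the 5′ end of cluster A, Hoxa11os (2.3) and Hotair (1.34), which lies among the 5′ genes of cluster C, rose. Counts of Hottip were only 3, 1, 0, 5 and 0 in G0 and 9, 6, 4, 20 and 21 in S-G2-M (WT1, WT2, WT3, 5, 8). Hotair lay in 5 and 8 at 0.74 and 1.18 CPM in G0 and at 0.912 and 1.65 CPM in S-G2-M. Mir10a (-1.48), Hoxaas2 (-1.03), Haglr (-0.96) and Hoxb5os (-0.88) fell. In G0, Hoxa11os (4.38) and Hotair (3.05) were higher at E13.5. Lower were 7, from Hoxd3os1 (-4.08) and Haglr (-3.46) to Hoxaas2 (-2.11), beside 22.5% of all genes. At E10.5 the G0 libraries (WT1, WT2) held only 3 and 3 counts of Hoxa11os and 5 and 1 of Hotair. The 7 that were lower include Hoxaas2, Hoxaas3, Hoxb3os and Hoxd3os1, the antisense partners of genes set apart above. Whether the title series were handled alike by strand is not given in the sources used here. A difference in library or strand handling between the series cannot be told apart from one of day.

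Among neighbours of the clusters and the related ParaHox genes, Evx1 and Evx2, which lie beside the 5′ ends of clusters A and D and mark interneurons of the spinal cord, fell from G0 to S-G2-M. Evx1 lay in G0 at 17.8, 10.7 and 12.3 CPM in WT1 to WT3 and at 2.27 and 2.61 CPM in 5 and 8, and its log2 change from G0 to S-G2-M was -3.68 (edgeR adjusted p = 1.16e-06). For Evx2, next to Hoxd13, the pooled change was -3.12 (edgeR adjusted p = 0.000749), while that of Hoxd13 was 3.41. Evx2 went from 22.7, 14.5 and 12.2 CPM in G0 to 0.868, 0.618 and 0.166 CPM in S-G2-M in WT1 to WT3, and from 4.74 and 6.9 to 9.81 and 6.97 CPM in 5 and 8. It was thus far lower in S-G2-M only in the 3 earlier preparations, and its change between the days passed the test (5.19, edgeR adjusted p = 8.1e-06). Gsx2 (2.8), Cdx1 (2.74) and Gsx1 (1.75) rose. Counts of Gsx2 in G0 were only 5, 3, 4, 7 and 8 (WT1, WT2, WT3, 5, 8). Those of Cdx1 were 0, 2, 2, 1 and 0 in G0 and 7, 26, 48, 0 and 0 in S-G2-M, so Cdx1 did not rise in 5 and 8. Of 20 regulators that act upstream of Hox genes, 12 were higher and 4 lower in S-G2-M, beside 27.5% and 26.6% of all genes. Wnt3a, a signal of the tail bud, had the highest change (2.14, edgeR adjusted p = 6.88e-07), and those that were lower include Gdf11, a signal of the trunk to tail transition (-1.38, edgeR adjusted p = 2.64e-10), T (-1.12) and Rara (-0.31). Rara fell in WT1 to WT3 only, and in 5 and 8 it lay at 49.44 and 53.68 CPM in G0 and at 50.35 and 54.5 CPM in S-G2-M. In G0, the retinoic acid receptors Rarg (2.63) and Rarb (0.71) and the Polycomb gene Bmi1 (0.75) were higher at E13.5 and T (-3.09) and Gdf11 (-1.44) lower.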

How the data were processed

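The deposited file is 1 table of raw counts from the authors, not normalized. The submitters' processing notes list STAR 2.5.3, HTSeq 0.8.0 and mm10. An annotation or strand setting was not given in the sources used here. RNA came from a column kit and was depleted of ribosomal RNA, per the labels' protocols. Of the 130 deposited columns, those of 1 preparation and fraction were parts of 1 library (index of dispersion 1.09 to 1.23, against 5.9 to 117.5 between preparations) and were summed to 25 libraries of 14692256 to 58492064 counts.

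Tests were edgeR 4.0.16 quasi-likelihood tests (R 4.3.3, limma 3.58.1; TMM factors, filterByExpr, robust fit) over all genes, adjusted by Benjamini-Hochberg, and called at an adjusted p under 0.05. Gates were compared in all 25 libraries with fraction and day as terms, days in unsorted cells in 5 libraries, and days within gates and the change of the S-G2-M against G0 difference in a model of 15 means. DESeq2 1.42.0, RLE factors, no filter, single title series, other overlap rules and leaving out each preparation were tried. The titles give the fractions of a preparation 1 shared number. Over 11647 genes their deviations correlated at 0.132 to 0.721 (E10.5) and 0.279 to 0.621 (E13.5), all over 0.1, so a fit with the preparation as a block was also made; days cannot be blocked. Tests were tested on simulated data. The members, lists and markers were chosen with earlier results of these data known. Named in each comparison were up to 5 genes with the highest and 5 with the lowest log2 change among called Hox genes whose mean log2 CPM was 0 or more (in comparisons of days, of those not set apart), and from each list all called genes when 5 or fewer, otherwise the highest and lowest; the other genes given with values in each library were added after their values were seen. Promoter sequences are RefSeq's on GRCm38.p6. Values of some single genes are not reported here; the counts of genes include them.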

Additional observations from a re-analysis of the deposited data

Results flagged for a closer look

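The change from G0 to S-G2-M differed between E10.5 and E13.5 in 17 Hox genes by a test of the difference itself (edgeR, adjusted over all genes). Values below are the log2 change at E13.5 minus that at E10.5. In cluster A they were -1.09 for Hoxa9, -2.33 for Hoxa10 and -3.76 for Hoxa11, over which an antisense gene lies. In cluster B they were -1.78 for Hoxb6, -1.56 for Hoxb7, -3.02 for Hoxb8 and -2.76 for Hoxb9, genes that fell from G0 to S-G2-M, and -5.61 for Hoxb13. In cluster C they were -0.93 for Hoxc9, -2.36 for Hoxc10, -2.8 for Hoxc11, -3.0 for Hoxc12 and -5.98 for Hoxc13. In cluster D they were -2.39 for Hoxd9, -3.48 for Hoxd10, -3.12 for Hoxd11 and -2.75 for Hoxd12. The values of Hoxb13 and Hoxc13 rest on G0 libraries with 0 counts at E10.5 and are no bound.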

How the results depend on the processing

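None of the 83 named values reversed its direction. Of 873 alternative values for them, 831 kept their direction and their side of the threshold and 42 lost the call. With the preparation as a replicate block, 3 genes were higher and 18 lower from G0 to G1, 0 and 9 from G1 to G1-S, 15 and 0 from G1-S to S-G2-M, and 14 and 21 from G0 to S-G2-M, each within 1.5 times the count without it; it lost the calls of Hoxd11 from G0 to G1 and of Hoxb13 and Hoxd10 from G1-S to S-G2-M, and gained those of Hoxc5 from G0 to G1, Hoxa2, Hoxc5 and Hoxc6 from G1-S to S-G2-M and Hoxa3 from G0 to S-G2-M. Within WT1, WT2 and WT3 alone, 10 genes were higher and 9 lower from G0 to G1, 1 was higher from G1 to G1-S and 12 were lower from G0 to S-G2-M. Within 5 and 8 alone, 2 were higher and 19 lower from G1 to G1-S, 4 were lower from G1-S to S-G2-M and 9 were higher from G0 to S-G2-M. Between these 2 series of preparations the called direction was opposite for Hoxb9 and Hoxa11 from G1 to G1-S, Hoxb9 from G1-S to S-G2-M and Hoxa9 from G0 to S-G2-M. Without a filter on low counts 10 genes were lower at E13.5 in unsorted cells and 7 in G1-S, and with any exon overlap set apart 2 were lower in G1-S. The cause was not tested, beyond the fewer samples or other set of genes that each setting uses.

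Leaving out 1 preparation in turn gave 3 to 4 genes higher and 13 to 18 lower from G0 to G1, 0 higher and 6 to 10 lower from G1 to G1-S, 7 to 14 higher and 0 lower from G1-S to S-G2-M, and 9 to 15 higher and 16 to 21 lower from G0 to S-G2-M. For E13.5 against E10.5 it gave 5 to 11 higher and 4 to 16 lower in unsorted cells, 13 to 21 and 3 to 7 in G0, 10 to 13 and 6 to 12 in G1, 7 to 11 and 1 to 8 in G1-S, and 4 to 8 and 5 to 16 in S-G2-M. The change of the S-G2-M against G0 difference gave 0 to 2 higher and 4 to 22 lower. Without 5 or 8 a single E13.5 preparation was left and was assumed to vary like the others. Depth limits Hoxb13, Hoxc13 and Hoxc12, which had 0 counts in 1 or both G0 libraries at E10.5.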
